A study of Homo sapiens with 15 samples.

Results

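Gene expression in K562 cells that received free JQ1 together with Cas9FCPF and sgRNA was compared with that of the control cells of the same study. K562 is a human line grown from chronic myeloid leukaemia, and it carries the BCR-ABL1 fusion. The comparison rests on 6 of the 15 RNA sequencing libraries of the series, chosen by their labels: 3 of genotype Cas9FCPF+sgRNA with JQ1, and 3 of genotype WT with the treatment NT, called the control here. Of the 57500 genes in each file, the 15517 that passed a filter on low counts were tested, without further selection.

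Per the labels' protocols, the JQ1 with sgRNA cells were transfected with Cas9FCPF and sgRNA and given 1 µM JQ1, and every library is labelled with a time of 1 h. The series' design text speaks of DMSO for the control, whereas the labels say NT, and nothing says that the control cells were transfected. Compound, transfection, Cas9FCPF and sgRNA therefore cannot be told apart when the control is the reference. The labels do not name the sgRNA's target, and they write Cas9 where the title of the series writes dCas9. The other groups, used below for direct comparisons and for values given side by side, were JQ1 without sgRNA, JQ1-FCPF with sgRNA and JQ1-FCPF without sgRNA, each with Cas9FCPF and 1 µM compound. Whether the 3 libraries of a group came from separate cultures is not stated. The p-values therefore cover the spread between these libraries alone, and it may be technical.

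JQ1 occupies the acetyl-lysine pockets of the BET proteins, a small family of chromatin readers. BET proteins sit on acetylated chromatin at enhancers and promoters and help the kinase P-TEFb to release paused RNA polymerase II into elongation. Short-lived transcripts under strong enhancers, such as MYC in leukaemia cells, are known to respond early to their loss. K562 cells are of an erythroid and megakaryocytic type, and their growth depends on BCR-ABL1 signalling through ERK and STAT5.

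Library totals were 15389436 to 16299007 counts in JQ1 with sgRNA and 14683547 to 17544518 counts in the control. JQ1 with sgRNA replicate 1 stood apart from the other libraries of its group. Its root mean square distance to them over log2 CPM was 0.438, against 0.324 and 0.33 for replicates 2 and 3 and 0.278 to 0.319 in the control. CPM here are counts scaled to a common library total. Mitochondrially encoded genes took 7.46% of counts in replicate 1, 3.06% and 2.79% in replicates 2 and 3, and 3.24% to 5.98% in the control libraries. Counts of calls in the gene groups below are therefore also given without replicate 1, and the part of that library in the results was otherwise not tested. The cells carried the markers of K562: over the 6 libraries GATA1 lay between 214 and 297 CPM, HBG2 between 444 and 762 CPM and BCR between 66.1 and 98.7 CPM. The labels call the cells lymphoblasts, and 6 B cell markers summed to 11.9 to 13.4 CPM in JQ1 with sgRNA and 12.5 to 14.1 CPM in the control. The 7 T and NK cell markers summed to 19.9 to 31.2 CPM in JQ1 with sgRNA and 28.9 to 35.4 CPM in the control, and 7 fibroblast markers to 3.84 to 4.84 CPM and 2.04 to 3.82 CPM. The 6 epithelial markers summed to 160 to 217 CPM in JQ1 with sgRNA and 212 to 246 CPM in the control, most of it from KRT19 and EPCAM. None of these markers was at 0 in all 6 libraries, and of the 8 tested only COL1A1 was called.

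In JQ1 with sgRNA the immediate early genes FOS, JUN and EGR1, MYC, the feedback genes DUSP1, NFKBIA and SMAD7, 25 of 56 genes of ribosome biogenesis and 12 of 45 of S phase were lower than in the control. CPZ, TAFA2, ASS1, MUC4, ASNS and MVD were higher. A gene was called when its Benjamini-Hochberg adjusted p in edgeR's quasi-likelihood test, adjusted over all 15517 genes, was under 0.05. In all, 2211 genes were called, 14.2% of those tested: 1119 were higher (7.21%) and 1092 were lower (7.04%). Without JQ1 with sgRNA replicate 1 there were 1858 calls, of which 1392 were shared, and no called gene changed sign. The count moved more with the control libraries, to 1431, 1141 and 726 calls without control replicate 1, 2 and 3. It was 3359 without JQ1-FCPF with sgRNA replicate 2, a library of neither group. That library enters this comparison through the shared filter, scaling and estimate of the spread.

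Most changes were small. A change over 2-fold was called for 260 higher genes (1.68%) and 116 lower genes (0.748%), and the median absolute log2 fold change was 0.66 among genes called higher and 0.51 among genes called lower. Genes called lower were the more abundant, with a median level of 34.7 CPM against 14.2 CPM for those called higher and 17.1 CPM for all genes tested. Of genes called lower 90.3% were protein coding, against 79.7% of genes called higher and 78.1% of all tested. In bulk RNA, fewer cells of a type and less RNA of a gene per cell cannot be told apart.

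**Figure D1:**
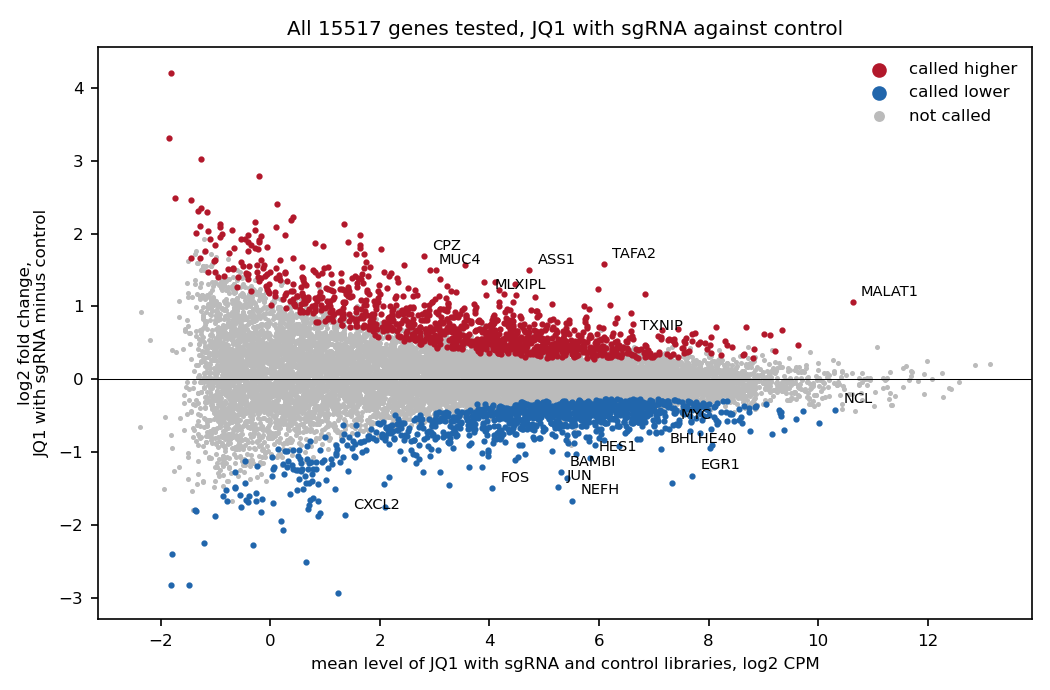
Log2 fold change of JQ1 with sgRNA over control (vertical axis) against the mean level over the 6 libraries (horizontal axis, log2 CPM) for the 15517 genes tested. Each point is a gene, red where called higher (1119), blue where called lower (1092) and grey where not called; NEFH, JUN, FOS and EGR1 lie among the lowest points at moderate and high levels.

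The gene with the deepest fall among well-measured genes was NEFH, which encodes the heavy neurofilament protein (mean of at least 5 CPM over the 6 libraries, protein coding and no overlap between groups). NEFH stood at 18.7, 24.7 and 22.3 CPM in JQ1 with sgRNA replicates 1 to 3, against 65.7, 69.7 and 72.4 CPM in the control. It fell 3.17-fold on average (log2 fold change -1.66 ± 0.27 SE, edgeR adjusted p = 0.00103). Every JQ1 with sgRNA library lay below every control library, as the rule required. Libraries that do not overlap were found for 34.5% of all genes tested, so separation alone is common here. By the same rule the 12 deepest falls ran from log2 fold changes of -1.66 to -1.10, all 12 were also called without replicate 1, and the next gene outside was CCNE2 at -1.10.

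FOS, JUN, EGR1, BAMBI and SMAD7 are among these 12 and are described with their lists below. AQP3, a channel for water and glycerol, was at 19.5, 27.1 and 25.3 CPM in JQ1 with sgRNA, against 57.6, 62.8 and 62.9 CPM in the control (log2 fold change -1.35, edgeR adjusted p = 0.00162). CYP26A1, the enzyme that breaks down retinoic acid, was at 4.19, 5.63 and 5.20 CPM in JQ1 with sgRNA, against 12, 12.5 and 11.9 CPM in the control (-1.28, edgeR adjusted p = 8.04e-05). For these genes every JQ1 with sgRNA library was below every control library, which the rule required of all 12. RHOB, a small GTPase whose mRNA is induced by growth factors and stress, was at 3.37, 5.24 and 6.79 CPM in JQ1 with sgRNA and at 14.8, 15.2 and 12.1 CPM in the control (-1.45, edgeR adjusted p = 0.00103). PDE3B, which degrades cyclic AMP and cyclic GMP, averaged 14.1 ± 2.16 CPM in JQ1 with sgRNA and 30.3 ± 4.92 CPM in the control (SD, n = 3 each). PRR22 and P2RY11, a receptor for extracellular ATP, completed the group, each with a log2 fold change of -1.20. P2RY11 is spanned by a readthrough transcript with its neighbour PPAN, so its counts are uncertain.

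The 12 largest rises by the same rule had log2 fold changes of 1.22 to 1.69, and 11 of the 12 were also called without replicate 1. CPZ, a secreted metallocarboxypeptidase, led them with 13.3, 7.92 and 11 CPM in JQ1 with sgRNA, against 3.50, 3.52 and 2.95 CPM in the control (3.23-fold, log2 fold change 1.69 ± 0.37 SE, edgeR adjusted p = 0.00599). TAFA2, which encodes a secreted chemokine-like protein, was at 129, 83.9 and 92 CPM in JQ1 with sgRNA, against 37.7, 32.5 and 32.1 CPM in the control (log2 fold change 1.58, edgeR adjusted p = 0.000905). In both genes the lowest JQ1 with sgRNA library was more than 2 times the highest control library. ASS1, the argininosuccinate synthase of arginine synthesis, was at 34.1, 39.7 and 43.7 CPM in JQ1 with sgRNA, against 13.9, 15.6 and 12 CPM in the control (1.5, edgeR adjusted p = 0.00216). MUC4, a membrane mucin, was at 10.7, 10.5 and 12.4 CPM in JQ1 with sgRNA, against 3.95, 3.17 and 4.66 CPM in the control (1.5, edgeR adjusted p = 0.0016). AIF1L, an actin-bundling protein, varied little within each group, with 30.7, 31.4 and 32.3 CPM in JQ1 with sgRNA, against 12.7, 13.2 and 12.4 CPM in the control (1.30, edgeR adjusted p = 0.000905).

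Replicate 1 was well above the other JQ1 with sgRNA libraries for some of the rises. GSDMB, a member of the gasdermin family of pore-forming proteins, was at 18.6, 8.90 and 8.51 CPM in JQ1 with sgRNA, against 6.62, 2.18 and 3.86 CPM in the control, where replicate 1 was also the highest. TRDN, the triadin of muscle calcium release, was at 12.2, 6.22 and 5.87 CPM in JQ1 with sgRNA, against 3.31, 3.52 and 3.35 CPM in the control. SAPCD1 was at 30.9, 18.6 and 15.1 CPM in JQ1 with sgRNA, against 12, 6.20 and 7.33 CPM in the control, and a readthrough transcript with MSH5 spans it. The log2 fold changes of these 3 genes were 1.5, 1.26 and 1.34, and 1.03, 0.83 and 0.98 without replicate 1. FUT1, which makes the H antigen of red cells, had a log2 fold change of 1.22 (edgeR adjusted p = 0.0244), and without replicate 1 it was 1.08 and the call was lost (edgeR adjusted p = 0.0643). The autophagy gene ATG16L2, the zinc finger gene ZC3H6 and HAPLN2, a link protein of the extracellular matrix, had log2 fold changes of 1.33, 1.38 and 1.23. The next gene outside was BCL6, at 1.19.

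**Figure D2:**
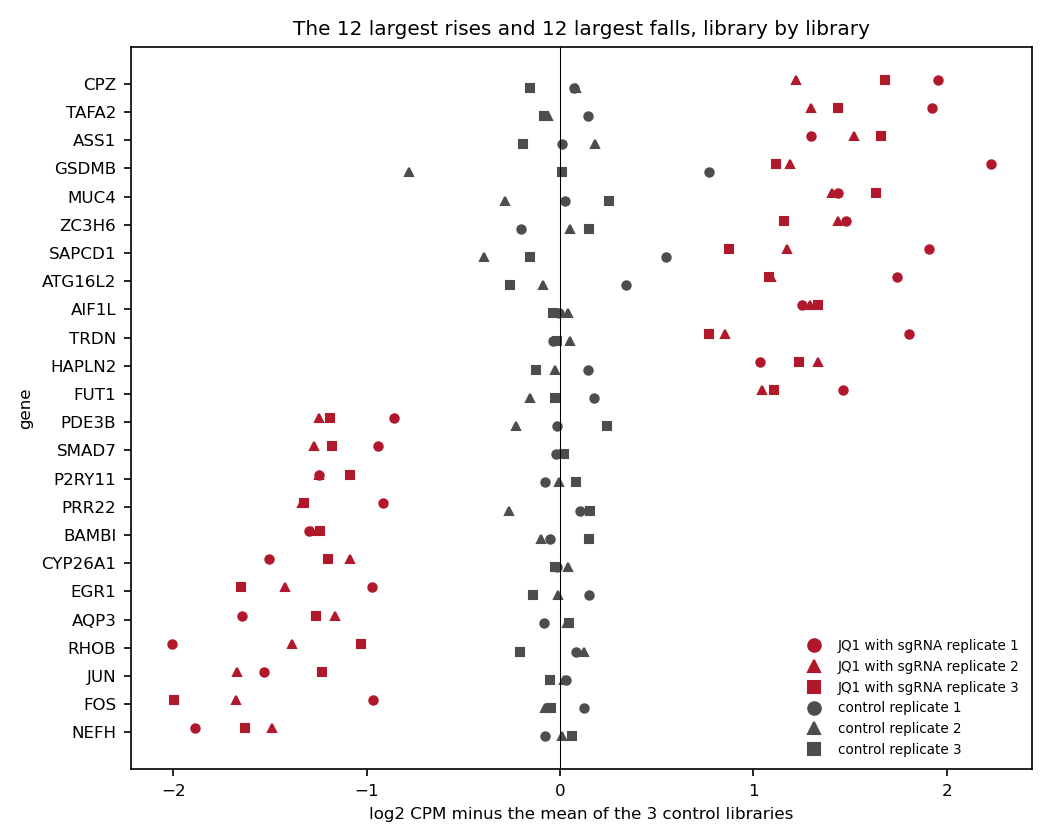
Log2 CPM of each of the 6 libraries minus the mean of the 3 control libraries (horizontal axis) for the 12 largest rises and 12 largest falls, 1 gene a row. Red symbols are JQ1 with sgRNA and grey symbols are control, with a circle, triangle and square for replicates 1, 2 and 3; for GSDMB, SAPCD1, ATG16L2, TRDN and FUT1 the red circle lies well right of the other red symbols.

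MYC (chromosome 8, 127735434 to 127741434, plus strand, GRCh38) encodes the bHLH factor that drives growth and ribosome production, and its transcript turns over within minutes. It stood at 103, 123 and 156 CPM in JQ1 with sgRNA replicates 1 to 3, against 195, 189 and 206 CPM in the control. The groups did not overlap, and JQ1 with sgRNA replicate 3 was the nearest to the control. MYC fell 1.54-fold (log2 fold change -0.63 ± 0.13 SE, edgeR adjusted p = 0.00486), and by 0.50 on the log2 scale without replicate 1 (edgeR adjusted p = 0.0143). HEXIM1, which inhibits P-TEFb and is often used as a gene that rises under BET inhibitors, was at 85.9, 86.3 and 80.8 CPM in JQ1 with sgRNA, against 120, 134 and 126 CPM in the control. It fell 1.5-fold (-0.59 ± 0.15 SE, edgeR adjusted p = 0.0122). Without control replicate 3 its log2 fold change was -0.59 and the call was lost (edgeR adjusted p = 0.0512).

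Of 12 genes listed as markers of the BET inhibitor response 11 were tested, of which 4 rose and 4 fell. That was 72.7% called, against 14.2% of all genes tested, with median log2 fold changes of 0.18 and 0.01. Without replicate 1, 3 rose and 3 fell. The risers were SAT1, TXNIP, ZCCHC24 and H2BC21, and the fallers HES1, MYC, HEXIM1 and CITED2, the last outside the rule for named genes and given after its values were seen. SAT1, which acetylates polyamines for export, was at 44.7, 38.2 and 35 CPM in JQ1 with sgRNA, against 22.1, 25.3 and 22.4 CPM in the control (log2 fold change 0.76, edgeR adjusted p = 0.0014). TXNIP, which binds thioredoxin and restrains glucose uptake, was at 136, 97.3 and 116 CPM in JQ1 with sgRNA, against 77.2, 73.4 and 81.2 CPM in the control (0.59 ± 0.12 SE, edgeR adjusted p = 0.00407). Each of the JQ1 with sgRNA libraries exceeded each control library for both genes. H2BC21, a histone gene on chromosome 1, was called (0.57, edgeR adjusted p = 0.0161) but not without replicate 1 (edgeR adjusted p = 0.0902).

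Among MYC's partners and antagonists, 3 of 12 tested genes rose and MYC alone fell, with the same counts without replicate 1. With all libraries 33.3% of this list was called, against 14.2% of all genes tested. MLXIPL, the glucose-sensing factor ChREBP, was at 25.2, 18.1 and 20.1 CPM in JQ1 with sgRNA, against 11.3, 7.75 and 9.43 CPM in the control (log2 fold change 1.15 ± 0.21 SE, edgeR adjusted p = 0.00197). MYCL, a MYC paralog, was at 12, 12.3 and 14.7 CPM in JQ1 with sgRNA, against 7.45, 6.76 and 7.27 CPM in the control (0.86, edgeR adjusted p = 0.0207). MXD4, a MAX partner that represses, had a log2 fold change of 0.44 (edgeR adjusted p = 0.0193). None of the 7 tested neighbours of MYC on its chromosome was called, and the smallest adjusted p was that of TRIB1, with 6.28, 5.96 and 9.73 CPM in JQ1 with sgRNA, against 9.29, 9.58 and 10.3 CPM in the control (edgeR adjusted p = 0.0942).

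Immediate early genes are transcribed within minutes of ERK and stress signals, from promoters that already hold RNA polymerase, and encode AP-1, EGR and related factors. Of 24 tested, 10 fell and none rose (41.7% called, against 14.2% of all genes tested). The median log2 fold change was -0.41, and 9 fell without replicate 1. JUN was at 19.4, 17.6 and 23.9 CPM in JQ1 with sgRNA, against 57.4, 57.1 and 54.5 CPM in the control (-1.47 ± 0.19 SE, edgeR adjusted p = 0.000178). FOS was at 12.4, 7.53 and 6 CPM in JQ1 with sgRNA, against 26.6, 23.1 and 23.7 CPM in the control (-1.5 ± 0.27 SE, edgeR adjusted p = 0.00197). EGR1 was at 151, 111 and 94.4 CPM in JQ1 with sgRNA, against 328, 294 and 269 CPM in the control (-1.32 ± 0.23 SE, edgeR adjusted p = 0.00172). In FOS and EGR1, replicate 1 was the highest of the JQ1 with sgRNA libraries, and the falls were larger without it, at -1.86 and -1.53. FOSL1, another AP-1 subunit, was at 25.8, 35.1 and 29.2 CPM in JQ1 with sgRNA, against 45.2, 48.6 and 49 CPM in the control (-0.67, edgeR adjusted p = 0.0021). KLF10, a zinc finger repressor induced by TGF-beta, also fell (-0.81, edgeR adjusted p = 0.00772).

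The promoter windows of EGR1, FOS and JUN are shown because these genes lead the list, and are given from 250 bases before to 50 bases after the RefSeq start on the gene's own strand (GRCh38.p14). Capitals mark, on either strand, the CRE core TGACG, the AP-1 letters TGANTCA, the TATA letters TATAAA, the GC box GGGCGG and the E-box CACGTG, where present.
EGR1, chr5:138465229-138465528, plus strand: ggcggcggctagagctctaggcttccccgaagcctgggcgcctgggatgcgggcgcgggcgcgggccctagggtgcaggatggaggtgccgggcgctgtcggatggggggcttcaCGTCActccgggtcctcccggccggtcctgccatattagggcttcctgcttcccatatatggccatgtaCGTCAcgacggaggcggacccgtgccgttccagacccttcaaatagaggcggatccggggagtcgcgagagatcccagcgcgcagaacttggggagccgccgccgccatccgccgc
FOS, chr14:75278578-75278877, plus strand: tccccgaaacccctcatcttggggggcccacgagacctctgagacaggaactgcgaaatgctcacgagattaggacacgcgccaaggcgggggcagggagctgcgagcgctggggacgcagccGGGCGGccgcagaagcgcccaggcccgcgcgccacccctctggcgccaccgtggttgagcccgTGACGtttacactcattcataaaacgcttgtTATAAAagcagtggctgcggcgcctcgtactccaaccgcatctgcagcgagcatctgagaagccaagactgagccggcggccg
JUN, chr1:58783998-58784297, minus strand: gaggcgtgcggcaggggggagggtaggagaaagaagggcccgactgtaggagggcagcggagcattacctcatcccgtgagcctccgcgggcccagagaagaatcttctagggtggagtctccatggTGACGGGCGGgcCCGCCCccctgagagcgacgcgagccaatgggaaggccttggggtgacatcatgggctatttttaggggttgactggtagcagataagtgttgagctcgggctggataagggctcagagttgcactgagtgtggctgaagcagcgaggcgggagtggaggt
The CRE core stood at positions -135 and -66 of EGR1, -64 of FOS and -123 of JUN, counted from the start to the first base of the match. FOS also held TATAAA at -33. In JUN the CRE core and a GC box shared 1 base. Among the 18 promoters of the list in the RefSeq table the CRE core was found in 12 (66.7%), against 34.8% of the 10653 promoters matched to tested genes. It was found in 36.7% of promoters of genes called lower and 33% of those called higher. The 18 promoters of the list were not split by call, so their share does not describe the members that fell. A match is a description of letters and not a bound site.

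Of 12 tested feedback genes of the ERK pathway, which acts upstream of many immediate early genes, 5 fell and none rose. That was 41.7% called, against 14.2% of all genes tested, with a median log2 fold change of -0.09. The same counts held without replicate 1. DUSP1, a MAP kinase phosphatase, was at 4.25, 4.58 and 4.41 CPM in JQ1 with sgRNA, against 9.42, 7.04 and 7.04 CPM in the control (-0.83, edgeR adjusted p = 0.0107). PHLDA1, a growth factor response gene, was at 4.42, 4.19 and 4.65 CPM in JQ1 with sgRNA, against 6.68, 9.09 and 7.95 CPM in the control (-0.83, edgeR adjusted p = 0.00654). DUSP5 and SPRY4, a nuclear ERK phosphatase and a Sprouty inhibitor of receptor signalling, had log2 fold changes of -0.81 and -0.50 (edgeR adjusted p = 0.0163 and 0.016).

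Of 20 tested NF-kB targets 7 fell and NFKB2, a subunit precursor, rose (0.55, edgeR adjusted p = 0.00751). The share called was 40%, against 14.2% of all genes tested, and the median log2 fold change was -0.28. The same counts held without replicate 1. The chemokine genes CXCL2 and CXCL3 were at a few CPM or less in these libraries. CXCL3 was at 1.74, 2.42 and 1.71 CPM in JQ1 with sgRNA, against 7.13, 7.54 and 5.17 CPM in the control (-1.75, edgeR adjusted p = 0.000484). CXCL2 was at 1.05, 1.37 and 0.918 CPM in JQ1 with sgRNA, against 5.35, 3.31 and 3.46 CPM in the control (-1.86, edgeR adjusted p = 0.000905). NFKBIA, the inhibitor that holds NF-kB in the cytoplasm, was at 11, 14.7 and 15.1 CPM in JQ1 with sgRNA, against 23.2, 23.9 and 23.5 CPM in the control (-0.80, edgeR adjusted p = 0.0011). TNFAIP3, the deubiquitinase A20, was at 3.90, 4.12 and 3.98 CPM in JQ1 with sgRNA, against 7.45, 7.89 and 8.18 CPM in the control (-0.97, edgeR adjusted p = 0.00109).

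Of 22 tested Notch, HES, ID and SMAD feedback genes 10 fell and 1 rose, the repressor gene HES7. The share called was 50%, against 14.2% of all genes tested, and the median log2 fold change was -0.45. Without replicate 1, 9 were lower and 3 higher. BAMBI, a decoy receptor that dampens TGF-beta signalling, was at 22.7, 23 and 23.7 CPM in JQ1 with sgRNA, against 54, 52.2 and 61.9 CPM in the control (-1.28 ± 0.13 SE, edgeR adjusted p = 2.82e-05). BHLHE40, a bHLH repressor of the clock and of stress responses, was at 94.9, 93.4 and 98.3 CPM in JQ1 with sgRNA, against 189, 187 and 179 CPM in the control (-0.95 ± 0.09 SE, edgeR adjusted p = 5.89e-06). HES1, the repressor that Notch induces, was at 29.8, 38.5 and 42.2 CPM in JQ1 with sgRNA, against 70.8, 87.8 and 73.8 CPM in the control (-1.07 ± 0.12 SE, edgeR adjusted p = 8.04e-05). For all 3 genes the gap between groups was wider than the range within either group.

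SKIL encodes SnoN, a repressor of SMAD complexes, and its levels were even within each group, at 16.8, 16 and 16.8 CPM in JQ1 with sgRNA and 33.9, 33.5 and 34.1 CPM in the control (-1.03 ± 0.12 SE, edgeR adjusted p = 8.11e-05). SKIL was as low in every other group that received Cas9FCPF, with means of 16.2 CPM in JQ1 without sgRNA, 16.8 CPM in JQ1-FCPF with sgRNA and 17 CPM in JQ1-FCPF without sgRNA. It was the 1 gene called in JQ1-FCPF without sgRNA against the control (0.00644% of genes tested). BHLHE40 was not called there, with a mean of 131 CPM against 185 CPM in the control (log2 fold change -0.50, edgeR adjusted p = 0.0727). SMAD7, the inhibitory SMAD, was at 4.48, 3.54 and 3.79 CPM in JQ1 with sgRNA and 8.59, 8.73 and 8.86 CPM in the control (-1.14, edgeR adjusted p = 0.000318). Its means were 4.62, 4.59 and 4.96 CPM in JQ1 without sgRNA, JQ1-FCPF with sgRNA and JQ1-FCPF without sgRNA, which share these control libraries. Of 13 tested STAT5 targets, ID1 and SOCS2 fell, and BCL6 and SOCS3 rose (30.8% called, against 14.2% of all genes tested). Without replicate 1 the counts were also 2 and 2. BCL6 itself was at 20.8, 10.6 and 12.1 CPM in JQ1 with sgRNA, against 8.34, 4.65 and 6.02 CPM in the control, and its log2 fold change of 1.19 was 0.84 without replicate 1, where the call was lost (edgeR adjusted p = 0.064). ID1, an inhibitor of bHLH factors, was at 41.9, 57.1 and 48.2 CPM in JQ1 with sgRNA, against 77.3, 90.4 and 80.1 CPM in the control (-0.75, edgeR adjusted p = 0.0016).

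Ribosome biogenesis is the nucleolar production of ribosomal RNA and its assembly with proteins, and many of its factors are textbook MYC targets with an E-box near the start. Of 56 tested genes of this list 25 fell and none rose (44.6% called, against 14.2% of all genes tested). The median log2 fold change was -0.35. Without replicate 1, 17 fell and the median was -0.30. RRS1, an assembly factor of the large subunit, was at 38.6, 51 and 49.5 CPM in JQ1 with sgRNA, against 75.9, 86.9 and 80.9 CPM in the control (-0.81 ± 0.12 SE, edgeR adjusted p = 0.000735). UTP15, of the small subunit processome, was at 29.1, 28.9 and 29.2 CPM in JQ1 with sgRNA, against 43.5, 47.8 and 44.9 CPM in the control (-0.64 ± 0.11 SE, edgeR adjusted p = 0.00125). POLR1C, a subunit shared by RNA polymerases I and III, was at 56.2, 68.4 and 68.5 CPM in JQ1 with sgRNA, against 91.8, 96.3 and 90.8 CPM in the control (-0.53, edgeR adjusted p = 0.00366). PPRC1, a coactivator of nuclear genes for mitochondria, had a log2 fold change of -0.57 (edgeR adjusted p = 0.00152). Among these 4 genes no JQ1 with sgRNA library reached a control library, and replicate 1 was lowest of its group for RRS1, POLR1C and PPRC1. Of the 77 cytosolic ribosomal protein genes none was called, and their median was 0.01. Without replicate 1, 5 of them were higher and the median was 0.16.

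The E-box CACGTG was found in 21 of the 47 ribosome biogenesis promoters in the RefSeq table (44.7%), against 10.2% of all promoters matched to tested genes. Over all genes called lower it was in 14.5% of promoters, and over genes called higher in 6.85%. The list was drawn up as ribosome biogenesis genes and MYC targets, so its 44.7% may follow from that choice. Its 47 promoters were not split by call, so that share does not describe the members that fell. The windows of 3 members that hold it are shown to place the match, with the same span and capitals as above. UTP20 and UTP4 act in the small subunit processome, and MYBBP1A is a nucleolar MYB-binding protein. They were picked after their values were seen, as members with a match and a small p, with members on MYC's chromosome left out.
UTP20, chr12:101279855-101280154, plus strand: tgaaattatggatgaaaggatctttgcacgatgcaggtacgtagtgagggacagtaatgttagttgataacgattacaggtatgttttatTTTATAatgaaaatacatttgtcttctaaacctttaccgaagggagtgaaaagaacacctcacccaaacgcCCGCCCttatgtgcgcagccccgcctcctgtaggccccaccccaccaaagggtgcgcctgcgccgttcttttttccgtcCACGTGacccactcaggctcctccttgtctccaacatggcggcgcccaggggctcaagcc
UTP4, chr16:69132399-69132698, plus strand: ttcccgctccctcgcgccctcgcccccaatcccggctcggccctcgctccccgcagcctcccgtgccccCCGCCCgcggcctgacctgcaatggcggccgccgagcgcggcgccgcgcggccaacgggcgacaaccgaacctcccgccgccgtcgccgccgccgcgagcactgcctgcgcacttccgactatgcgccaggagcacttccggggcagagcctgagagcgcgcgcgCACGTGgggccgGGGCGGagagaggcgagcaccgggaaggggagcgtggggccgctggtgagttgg
MYBBP1A, chr17:4555335-4555634, minus strand: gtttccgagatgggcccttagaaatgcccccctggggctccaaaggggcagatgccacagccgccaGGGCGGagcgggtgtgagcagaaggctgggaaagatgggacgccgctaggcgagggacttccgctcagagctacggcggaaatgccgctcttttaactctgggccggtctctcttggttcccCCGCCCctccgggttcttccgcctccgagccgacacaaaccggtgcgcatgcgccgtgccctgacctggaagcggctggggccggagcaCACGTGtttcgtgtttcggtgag
The E-box began 10 bases before the start in UTP20, 16 bases before it in UTP4 and at base 28 after it in MYBBP1A. UTP20 was at 31.2, 28.9 and 29.7 CPM in JQ1 with sgRNA, against 43.3, 41.3 and 49.2 CPM in the control (-0.58, edgeR adjusted p = 0.00517). UTP4 was at 73.6, 98.5 and 102 CPM in JQ1 with sgRNA, against 134, 168 and 150 CPM in the control (-0.73, edgeR adjusted p = 0.00599). MYBBP1A was at 146, 161 and 169 CPM in JQ1 with sgRNA, against 199, 221 and 222 CPM in the control (-0.44, edgeR adjusted p = 0.00983). The lowest JQ1 with sgRNA library was replicate 1 for UTP4 and MYBBP1A and replicate 2 for UTP20.

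Of 45 tested E2F and S phase genes 12 fell and none rose (26.7% called, against 14.2% of all genes tested). The median log2 fold change was -0.22. Without replicate 1, 9 fell and 1 rose. GINS3, of the replicative helicase, was at 12.2, 13.3 and 14.3 CPM in JQ1 with sgRNA, against 24.7, 22.5 and 22.7 CPM in the control (-0.81, edgeR adjusted p = 0.000912). CCNE2, the cyclin E2 of S phase entry, was at 4.77, 4.06 and 3.73 CPM in JQ1 with sgRNA, against 9.16, 9.37 and 8.46 CPM in the control (-1.10, edgeR adjusted p = 0.00148). UHRF1, which keeps DNA methylation through replication, was at 88.8, 88.1 and 81.7 CPM in JQ1 with sgRNA, against 128, 135 and 139 CPM in the control (-0.64, edgeR adjusted p = 0.00186). E2F1 itself had a log2 fold change of -0.50 (edgeR adjusted p = 0.0051). Of 36 tested G2/M genes 1 was called, the phosphatase CDC25C, at 27, 27.6 and 30.9 CPM in JQ1 with sgRNA, against 18.3, 20.2 and 18.5 CPM in the control (0.59, edgeR adjusted p = 0.0225). Of 15 tested G1 cyclins and CDK inhibitors, CDC25A and CCND1 fell (-0.46 and -0.33, edgeR adjusted p = 0.00486 and 0.0241). The G2/M and G1 shares called, 2.78% and 13.3%, were below the 14.2% of all genes tested. Without replicate 1, 2 of the G2/M genes rose and 1 of the G1 genes fell. None of 15 BCL2 family genes was called, and 2 were higher without replicate 1.

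Of 42 tested RNA polymerase II and Mediator genes 6 fell and 1 rose, 16.7% called against 14.2% of all genes tested, and 4 fell and none rose without replicate 1. POLR2A, the largest polymerase subunit, was at 133, 133 and 145 CPM in JQ1 with sgRNA, against 200, 198 and 234 CPM in the control (-0.62 ± 0.12 SE, edgeR adjusted p = 0.00293). Of 21 tested genes of BET proteins, P-TEFb and the 7SK particle 5 fell and none rose (23.8% called), and 7 fell without replicate 1. MEPCE, which caps 7SK RNA, was at 53.1, 74 and 80.7 CPM in JQ1 with sgRNA, against 98.7, 117 and 125 CPM in the control (-0.71, edgeR adjusted p = 0.00665). BRD2, itself a target of JQ1, was at 252, 242 and 236 CPM in JQ1 with sgRNA, against 316, 296 and 327 CPM in the control (-0.36, edgeR adjusted p = 0.0302), and SUPT5H, of the pausing and elongation factor DSIF, was also lower (-0.36, edgeR adjusted p = 0.0163). Of 40 chromatin cofactors 4 fell and none rose, 10% called and so below the share of all genes, and 3 fell and 1 rose without replicate 1. Those lower included the acetyltransferases CREBBP (-0.52, edgeR adjusted p = 0.00779) and EP300 (-0.44, edgeR adjusted p = 0.0114). Each of these 6 named genes kept its groups apart.

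The share of erythroid genes called was near the 14.2% of all genes tested. Of 23 tested erythroid transcription factor genes 3 fell (13%) and none rose: ZFPM1, the GATA1 partner FOG1, at 83.5, 111 and 107 CPM in JQ1 with sgRNA, against 144, 160 and 166 CPM in the control (-0.64, edgeR adjusted p = 0.00288), KLF1 (-0.49, edgeR adjusted p = 0.0194) and LMO2 (-0.32, edgeR adjusted p = 0.0324). Without replicate 1, KLF1 and LMO2 had edgeR adjusted p = 0.0583 and 0.0613. Of 30 tested globin and heme genes TFRC, EPOR and HBD fell and HBE1 rose (13.3%), and 3 fell and 2 rose without replicate 1. HBD, the delta globin, lost its call without replicate 1 (log2 fold change -0.78 against -0.95, edgeR adjusted p = 0.0954) and without control replicate 1 or 2. TFRC, the transferrin receptor, was at 302, 278 and 270 CPM in JQ1 with sgRNA, against 438, 371 and 454 CPM in the control (-0.57, edgeR adjusted p = 0.00896). HBE1, embryonic epsilon globin, was at 286, 419 and 417 CPM in JQ1 with sgRNA, against 257, 301 and 254 CPM in the control (0.47, edgeR adjusted p = 0.016), and its replicate 1 lay within the range of the control. Of 7 tested myeloid and megakaryocytic genes ITGA2B and CD33 rose (28.6% called), and 2 rose without replicate 1. ITGA2B, the platelet integrin CD41, was at 9.95, 8.44 and 6.79 CPM in JQ1 with sgRNA, against 4.39, 2.89 and 4.03 CPM in the control (1.15, edgeR adjusted p = 0.0022).

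Of 32 tested ATF4 and unfolded protein genes 7 rose and 2 fell (28.1% called, against 14.2% of all genes tested). Without replicate 1, 7 rose and 1 fell. DDIT3, the stress factor CHOP, was at 55.1, 57.8 and 55 CPM in JQ1 with sgRNA, against 37.3, 30.7 and 27.1 CPM in the control (0.82 ± 0.13 SE, edgeR adjusted p = 0.000905). ASNS, asparagine synthetase, was at 544, 618 and 719 CPM in JQ1 with sgRNA, against 394, 453 and 372 CPM in the control (0.63 ± 0.15 SE, edgeR adjusted p = 0.0111). The ASNS call was lost without control replicate 3 and without JQ1 with sgRNA replicate 3 (edgeR adjusted p up to 0.0645). CHAC1, which degrades glutathione and is also an ATF4 target, went the other way, with 21.6, 32.5 and 38.2 CPM in JQ1 with sgRNA, against 46.4, 66.6 and 55.2 CPM in the control (-0.87, edgeR adjusted p = 0.00772). DDIT4, an inhibitor of mTORC1, rose (0.67, edgeR adjusted p = 0.00411).

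Of 29 tested cholesterol and fatty acid genes 6 rose and 2 fell (27.6% called, against 14.2% of all genes tested). Without replicate 1, 6 rose and 1 fell. MVD, of the mevalonate pathway, was at 217, 217 and 233 CPM in JQ1 with sgRNA, against 158, 155 and 160 CPM in the control (0.49 ± 0.09 SE, edgeR adjusted p = 0.00279). INSIG1, which retains SREBP in the endoplasmic reticulum, was at 229, 226 and 226 CPM in JQ1 with sgRNA, against 165, 174 and 179 CPM in the control (0.39, edgeR adjusted p = 0.011). SREBF1, which encodes SREBP itself, was lower, at 206, 183 and 186 CPM in JQ1 with sgRNA, against 263, 252 and 279 CPM in the control (-0.47, edgeR adjusted p = 0.00751). Of 29 tested glycolysis and glucose genes 6 rose and 2 fell (also 27.6% called), and 6 rose and 3 fell without replicate 1. Besides TXNIP, its paralog ARRDC4 rose, at 9.13, 9.43 and 9.18 CPM in JQ1 with sgRNA, against 5.98, 5.35 and 5.85 CPM in the control (0.69, edgeR adjusted p = 0.00412). ARRDC3, another arrestin-like paralog, fell, at 15.2, 14.8 and 11.8 CPM in JQ1 with sgRNA, against 26.3, 20.4 and 29 CPM in the control (-0.86, edgeR adjusted p = 0.00326). ALDOC, the aldolase C of glycolysis, rose (0.61, edgeR adjusted p = 0.00613).

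Of 24 tested p53 targets 6 rose and 3 fell (37.5% called, against 14.2% of all genes tested). Without replicate 1, only 2 rose and 2 fell. CCNG1, an early p53 target, was at 195, 195 and 194 CPM in JQ1 with sgRNA, against 139, 151 and 127 CPM in the control (0.49, edgeR adjusted p = 0.00844), and it was still called without replicate 1 (edgeR adjusted p = 0.012). TNFRSF10B, a death receptor, was at 61.8, 43.8 and 42.8 CPM in JQ1 with sgRNA, against 36, 30.4 and 31.2 CPM in the control (0.60, edgeR adjusted p = 0.0324) and was not (edgeR adjusted p = 0.144). K562 cells lack functional p53, so the list names only how these genes are known from other cells.

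Of 25 tested heat shock genes 6 fell and none rose (24% called, against 14.2% of all genes tested). Without replicate 1, 4 fell. HSPH1, a nucleotide exchange factor of HSP70, was at 101, 108 and 118 CPM in JQ1 with sgRNA, against 147, 167 and 172 CPM in the control (-0.58, edgeR adjusted p = 0.0106). Of 12 polyamine genes SAT1 rose and ODC1, the rate-limiting enzyme of synthesis, fell, at 282, 339 and 319 CPM in JQ1 with sgRNA, against 452, 476 and 492 CPM in the control (-0.59, edgeR adjusted p = 0.0122), with the same counts without replicate 1. The share of polyamine genes called, 16.7%, was near the 14.2% of all genes tested. Of 16 clock genes BHLHE40, NR1D1 and PER2 fell and CRY1 rose (25% called), and without replicate 1 the counts were 3 and 0. CRY1 (0.44, edgeR adjusted p = 0.0406) lost its call with the replicate block and in 5 of the fits that leave out 1 library, among them that without replicate 1 (edgeR adjusted p = 0.12). NR1D1 and PER2 had log2 fold changes of -0.72 and -0.64 (edgeR adjusted p = 0.00371 and 0.00637). Of 15 other Krüppel-like factors KLF10 fell and KLF15 rose (0.60, edgeR adjusted p = 0.0182), with the same counts without replicate 1. That was 13.3% called, also near the 14.2% of all genes tested. Of 25 NRF2 targets KEAP1 and NFE2L2 fell (-0.36 and -0.35, edgeR adjusted p = 0.0385 and 0.0443), and neither was called without replicate 1, where 1 other gene rose. The share of NRF2 targets called, 8%, was below that of all genes tested. None of the 15 interferon and nucleic acid sensing genes, the 13 mitochondrially encoded genes and the 75 nuclear respiratory chain genes was called. Without replicate 1, 2, 0 and 4 of these were higher and 0, 3 and 0 were lower.

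Of 4 tested nuclear noncoding RNAs 2 rose (50% called, against 14.2% of all genes tested), both highest in replicate 1. MALAT1, a nuclear speckle RNA, was at 2640, 2240 and 1550 CPM in JQ1 with sgRNA, against 1290, 690 and 1110 CPM in the control (1.06 ± 0.22 SE, edgeR adjusted p = 0.00517). KCNQ1OT1, a long noncoding RNA of an imprinted locus, was at 36.8, 24.4 and 21.3 CPM in JQ1 with sgRNA, against 17.8, 11.1 and 13.9 CPM in the control (0.95, edgeR adjusted p = 0.00486). In both, JQ1 with sgRNA replicate 1 and control replicate 1, the libraries with the most mitochondrial counts of their groups, were the highest of their groups, and both were still called without JQ1 with sgRNA replicate 1 (edgeR adjusted p = 0.0171 and 0.0235). NEAT1, the RNA of paraspeckles, was at 859, 508 and 501 CPM in JQ1 with sgRNA, against 775, 566 and 616 CPM in the control and was not called (edgeR adjusted p = 0.861). Of 20 snoRNA host genes DANCR was at 158, 220 and 182 CPM in JQ1 with sgRNA, against 341, 371 and 333 CPM in the control (-0.90, edgeR adjusted p = 0.00772), SNHG17 also fell and SNHG32 rose. CCDC18-AS1 was called higher with groups that overlap, at 28.7, 20 and 13.4 CPM in JQ1 with sgRNA, against 15.5, 9.23 and 12.7 CPM in the control, and its log2 fold change of 0.73 was 0.41 without replicate 1 (edgeR adjusted p = 0.176). Without replicate 1, 3 snoRNA host genes fell and 2 rose. With all libraries 20% of the snoRNA host genes were called, against 14.2% of all genes tested. Of 42 histone genes 4 rose (9.52%, below the 14.2% of all genes tested) and 2 rose without replicate 1, and counts of these near-identical genes are uncertain.

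JQ1 with sgRNA was then set directly against JQ1 without sgRNA, a pair that differs in the sgRNA alone according to the labels. Only 2 genes were called, both lower (0.0129% of genes tested), with 1264 at an unadjusted p under 0.05, and DESeq2 called 6. BHLHE40 was at 94.9, 93.4 and 98.3 CPM in JQ1 with sgRNA, against 144, 153 and 147 CPM in JQ1 without sgRNA (log2 difference -0.63, 95% interval -0.81 to -0.45, edgeR adjusted p = 0.00623). HES1 was at 29.8, 38.5 and 42.2 CPM in JQ1 with sgRNA, against 69.7, 57.2 and 70.4 CPM in JQ1 without sgRNA (-0.84, 95% interval -1.10 to -0.58, edgeR adjusted p = 0.00855). Leaving out 1 library at a time gave 0 to 3 calls among these 6 libraries.

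No difference between the JQ1 groups passed the test for the other named genes, and the intervals bound how large one could be. The MYC difference was -0.27, with a 95% interval of -0.54 to 0.01 (edgeR adjusted p = 0.603). TXNIP was at 136, 97.3 and 116 CPM in JQ1 with sgRNA, against 66.4, 77.6 and 83 CPM in JQ1 without sgRNA, a difference of 0.62 with a 95% interval of 0.37 to 0.87 that did not pass over all genes (edgeR adjusted p = 0.146). JUN was at 19.4, 17.6 and 23.9 CPM in JQ1 with sgRNA, against 30.9, 31.8 and 32.8 CPM in JQ1 without sgRNA (-0.65, 95% interval -1.06 to -0.24, edgeR adjusted p = 0.502). These groups did not overlap, although no call was made. EGR1 differed by 0.01, with a 95% interval of -0.47 to 0.49. None of the 24 leading genes was called here, with differences of -0.48 to 0.57 for the rises and -0.76 to 0.30 for the falls.

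JQ1-FCPF carries the name of the FCPF tag on Cas9FCPF, and its structure is not described in the labels. Both compounds were given at 1 µM with a labelled time of 1 h and with Cas9FCPF and sgRNA. JQ1 with sgRNA differed from JQ1-FCPF with sgRNA in 458 genes (2.95% of those tested), 275 higher (1.77%) and 183 lower (1.18%) with JQ1. JQ1-FCPF with sgRNA replicate 2 stood apart from its group, with a distance of 0.518, and without it the count was 2757. On the first principal component of log2 CPM, the main axis of spread between libraries, it lay at 32.2. Replicates 1 and 3 of its group lay at -16.7 and -14.8, whereas the JQ1 libraries with and without sgRNA lay at 16.8 to 24.6. On that axis replicate 2 was thus on the side of the JQ1 libraries, and the cause was not tested. In a fit of only these 2 groups the count was 11, and leaving out 1 of the other libraries gave 68 to 570.

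MYC, HES1 and BHLHE40 were higher with JQ1 than with JQ1-FCPF. MYC was at 103, 123 and 156 CPM in JQ1 with sgRNA, against 60.2, 57.3 and 61 CPM in JQ1-FCPF with sgRNA (log2 difference 1.10, 95% interval 0.82 to 1.38, edgeR adjusted p = 8.14e-05). HES1 was at 29.8, 38.5 and 42.2 CPM in JQ1 with sgRNA, against 14.9, 14 and 15.5 CPM in JQ1-FCPF with sgRNA (1.31, edgeR adjusted p = 9.64e-06). BHLHE40 differed by 1.02 (edgeR adjusted p = 2.68e-06). All JQ1 with sgRNA libraries were above all JQ1-FCPF with sgRNA libraries for these 3 genes. Others higher with JQ1 were MIR223HG, the host gene of miR-223 (1.90, edgeR adjusted p = 0.000286), BCL3, an atypical IkB protein (1.35, edgeR adjusted p = 0.00852), RHOH, a blood-cell GTPase (1.28, edgeR adjusted p = 0.000254), and CCNO, cyclin O (1.23, edgeR adjusted p = 0.00263). Of 23 erythroid transcription factor genes 4 were higher with JQ1 and none lower: NFE2, GFI1B, TAL1 and LMO2, of which NFE2 and GFI1B were picked after their values were seen. Over all genes tested 1.77% were higher. NFE2, a globin locus activator, was at 227, 291 and 296 CPM in JQ1 with sgRNA, against 93.3, 176 and 130 CPM in JQ1-FCPF with sgRNA (1.03, edgeR adjusted p = 0.000541).

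Some immediate early genes, among them FOS and EGR1, went the other way between the compounds. FOS was at 12.4, 7.53 and 6 CPM in JQ1 with sgRNA, against 83.7, 31.8 and 74.8 CPM in JQ1-FCPF with sgRNA (log2 difference -2.87, 95% interval -3.43 to -2.31, edgeR adjusted p = 2.68e-06). EGR1 was at 151, 111 and 94.4 CPM in JQ1 with sgRNA, against 560, 210 and 533 CPM in JQ1-FCPF with sgRNA (-1.87, 95% interval -2.36 to -1.38, edgeR adjusted p = 0.000101). Within JQ1-FCPF with sgRNA, replicate 2 was the lowest for both genes and still above every JQ1 with sgRNA library. Of the 24 immediate early genes 10 were lower with JQ1 and none higher, and of the 42 histone genes 24 were lower and none higher. Over all genes tested 1.18% were lower. FOSL1 was not called, with a log2 difference of 0.23 (edgeR adjusted p = 0.343). HIST1H3B, a replication-dependent histone H3 gene, was at 3.49, 3.21 and 4.90 CPM in JQ1 with sgRNA, against 16.6, 10.1 and 14.5 CPM in JQ1-FCPF with sgRNA (-1.82, edgeR adjusted p = 8.14e-05). TXNIP was at 136, 97.3 and 116 CPM in JQ1 with sgRNA, against 293, 254 and 303 CPM in JQ1-FCPF with sgRNA (-1.28, 95% interval -1.53 to -1.04, edgeR adjusted p = 2.68e-06).

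For some genes no difference passed. BAMBI differed by 0.01 between the compounds with sgRNA, with a 95% interval of -0.28 to 0.30, and SMAD7 by -0.23 with an interval of -0.57 to 0.12. UTP15 differed by -0.24 (95% interval -0.47 to -0.02, edgeR adjusted p = 0.231) and ASNS by -0.09 (95% interval -0.40 to 0.23). The JQ1-FCPF with sgRNA libraries were at 551, 902 and 543 CPM of ASNS and 25.7, 16.1 and 26.9 CPM of BAMBI. Both differences thus rest partly on replicate 2, the library that stands apart. The intervals leave room for differences up to those bounds.

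Set side by side, and sharing the same 3 control libraries, the treated groups gave 2211 calls against the control for JQ1 with sgRNA (14.2%), 1908 for JQ1 without sgRNA (12.3%; 6.07% higher and 6.23% lower), 1119 for JQ1-FCPF with sgRNA (7.21%; 2.42% higher and 4.79% lower) and 1 for JQ1-FCPF without sgRNA. The JQ1-FCPF with sgRNA count includes its outlying replicate 2 and was not remade without it. The order of these counts is therefore not a measure of how strongly each compound acts. NEFH had log2 fold changes of -1.66 in JQ1 with sgRNA, -1.43 in JQ1 without sgRNA, -0.60 in JQ1-FCPF with sgRNA and -0.17 in JQ1-FCPF without sgRNA. MUC4 had 1.5, 1.98, 1.15 and 0.49 in the same order. In JQ1-FCPF with sgRNA both values rest largely on replicate 2, the library that stands apart, with 62.4, 16.6 and 57.8 CPM of NEFH and 7.43, 14.2 and 5.04 CPM of MUC4. HES1 had -1.07, -0.24, -2.38 and -0.16, and TXNIP 0.59, -0.03, 1.88 and 0.04. NEFH and MUC4 thus had both JQ1 groups farthest from the control, whereas HES1 and TXNIP had both sgRNA groups farthest from it.

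**Figure D3:**
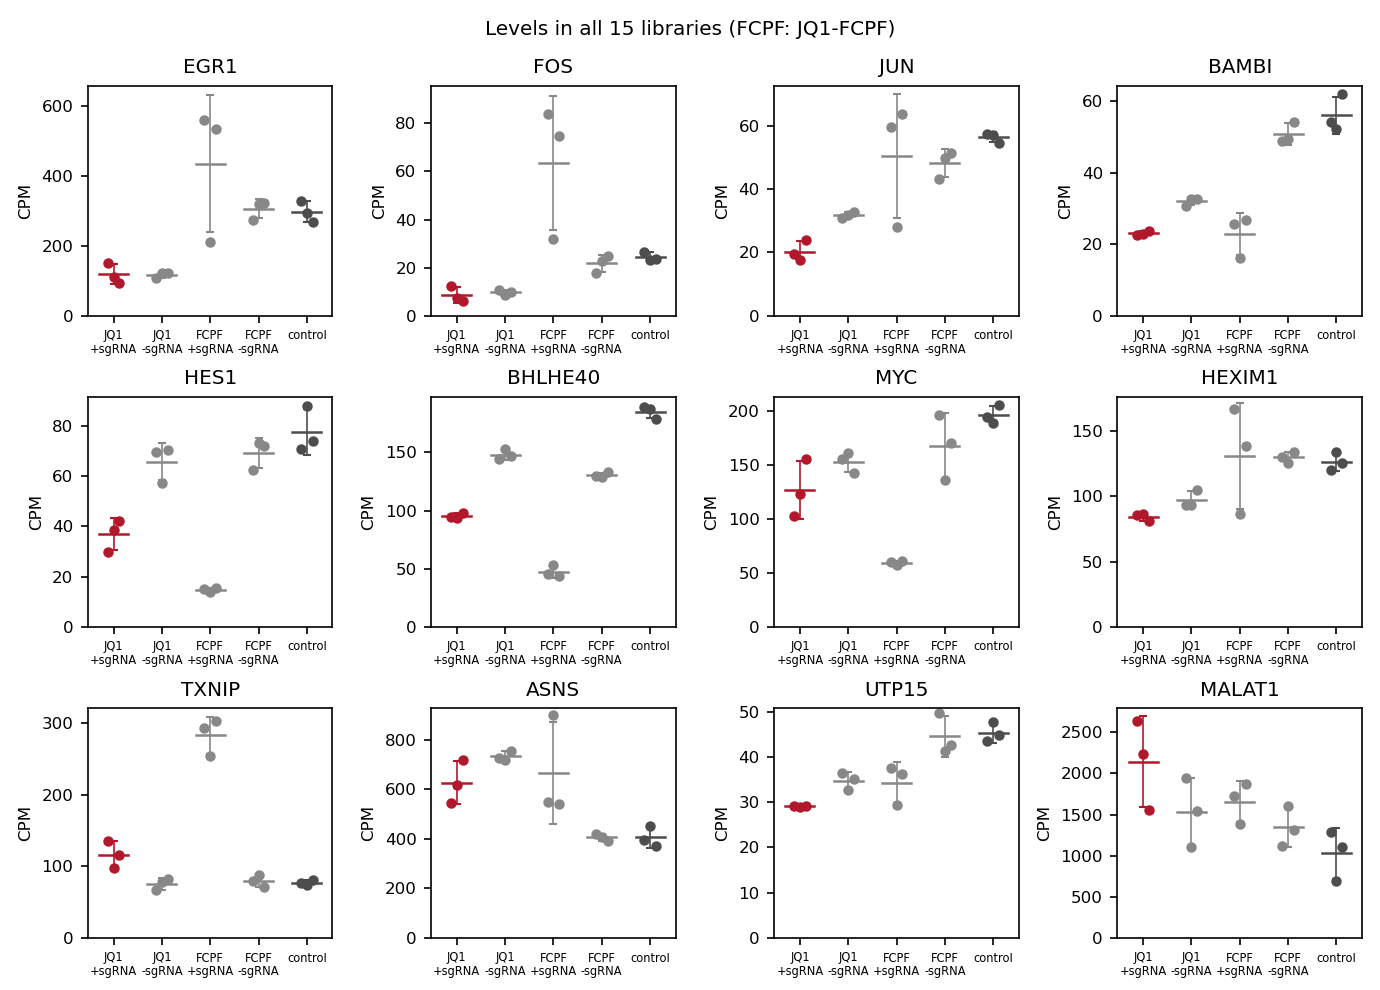
CPM of 12 genes in all 15 libraries (vertical axes, each starting at 0), with JQ1 with sgRNA in red, the control in dark grey and the other groups in light grey. Points are libraries, long lines are means and error bars are SD (n = 3); EGR1 and JUN are lowest in the 2 JQ1 groups, whereas HES1 and MYC are lowest in JQ1-FCPF with sgRNA.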

How the data were processed

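Per the labels' protocols, Trizol was used to extract RNA, which Azenta checked and sequenced. The deposited files hold whole raw counts for 57500 genes, 1 file a library. For the aligner, build, annotation and strand setting, the answer is "not given in the sources used here". Symbols were found for 40907 genes, and 56898 were matched to GENCODE 29, where 96.3% had the same start and end (GRCh38). Counts of overlapping, antisense or near-identical genes may be shared.

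The deposited counts were filtered with filterByExpr, scaled by TMM and fitted with edgeR 4.0.16 (R 4.3.3) with 1 mean per group over all 15 libraries. The test was edgeR's quasi-likelihood test with Benjamini-Hochberg adjustment over 15517 genes and a threshold of 0.05. The biological coefficient of variation was 11.1%. SE was derived from the F statistic, and log2 CPM carry a prior count of 2. Totals of 12625669 to 17544518 counts over the 15 libraries make counting error small except at a few CPM. Within groups every pair of libraries differed by more than sampling noise (chi-square per degree of freedom of 2.76 or more).

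Named genes were MYC and HEXIM1, the 12 largest changes in each direction (protein coding, mean of at least 5 CPM, called, no overlap), up to 4 members per list with the smallest p, and up to 6 in each direction of each direct comparison. CITED2, GFI1B, HES7, NFE2, NFKB2, UTP20, UTP4 and MYBBP1A fall outside this rule and were named after their values were seen. The comparison, the 40 lists and the motifs were chosen with earlier results of these data known. Alternatives were DESeq2 1.42.0, other scalings and filters, a replicate block, GC and length offsets, fewer groups, and leaving out libraries. List counts without JQ1 with sgRNA replicate 1 were added after seeing the data. The test was checked on simulated counts. Promoters came from RefSeq (GRCh38.p14), which matched 10653 of 15507 symbols.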

Additional observations from a re-analysis of the deposited data

Results flagged for a closer look

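BHLHE40 and HES1 differed between the groups with and without sgRNA under the same compound. BHLHE40 differed by -0.63 on the log2 scale in JQ1 with sgRNA minus JQ1 without sgRNA (edgeR adjusted p = 0.00623), with the 3 libraries with sgRNA below the 3 without. HES1 differed by -0.84 (edgeR adjusted p = 0.00855), again with no overlap of the libraries. No gene was called in a fit of only these 2 groups or without JQ1 without sgRNA replicate 1, so both calls were lost there. The cause was not tested.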

How the results depend on the processing

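The 2211 calls of JQ1 with sgRNA against the control became 1811 to 2742 under DESeq2, its size factors, other filters, GC and length offsets, the replicate block and a fit of the groups compared, and no called gene changed sign under any alternative. Leaving out 1 library gave 726 to 3359 calls, and leaving out both libraries that stand apart 3582. Against JQ1 without sgRNA the 2 calls became 80 with no filter on low counts, 0 with only the groups compared, 5 with the GC content and length offset, 6 with DESeq2 and 9 without both libraries that stand apart, and 0 to 7 without 1 library. Against JQ1-FCPF with sgRNA the 458 calls became 822 with no filter, 11 with only the groups compared, 3176 without both libraries that stand apart, and 68 to 2757 without 1 library. The cause of these moves was not tested. The replicate block gave 1998, 3 and 380 calls in these comparisons. Same-lettered libraries of JQ1 with sgRNA and the control had correlated deviations of 0.311, 0.215 and 0.008, so the letters were not taken to pair them, and control replicate 2 correlated best with JQ1 with sgRNA replicate 3 (0.237). Of the 166 named genes, 44 lost their call without control replicate 3, 28 without control replicate 2 and 20 without JQ1 with sgRNA replicate 1. Precision is limited by 3 libraries a group, and at a few CPM also by depth.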
